A study of Mus musculus with 2 samples.

Results

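The genes described here are 10 components and readouts of the Notch pathway in endothelial cells of the mouse sciatic nerve, taken by name from 53380 features. They are the ligands Dll4, Dll1, Jag1 and Jag2, the receptors Notch1 and Notch4, the sugar transferase Lfng, the target genes Hes1 and Hey1, and the arterial connexin Gja4. Gja4 is not a core component of the pathway and stands here as a gene of arterial identity. Notch signalling runs between touching cells: a ligand on one cell binds a receptor on its neighbour, the receptor is cut, and its intracellular part joins the DNA-binding protein RBPJ to switch on targets such as the Hes and Hey repressors. In blood vessels the pathway is known for holding back sprouting next to a Dll4-bearing tip cell and for arterial identity. Fringe enzymes such as Lfng add sugars to the receptors and thereby change how they respond to Delta and Jagged ligands.

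The 2 single-cell RNA libraries compared were intact (uninjured sciatic nerves of adult mice) and injured (the bridge, the tissue at the lesion, 7 days post injury). In both, cells carried the R26-TomatoLSL reporter switched on through Cdh5(PAC)-CreERT2, a tamoxifen-inducible Cre driven by the promoter of the endothelial cadherin Cdh5, and TdTomato-positive, CD45-negative cells were sorted from pooled nerves (the labels write the reporter as Chd5CreER/R26-TdTomato). The reporter therefore marks cells in which the Cdh5 promoter had driven Cre, together with their progeny, and the pool gives no animal-level replicate. With 1 library per condition no test was possible, all intervals cover counting error only, and injury cannot be told apart from the animals, the sort and the sequencing run. Levels are UMIs (unique molecular identifiers, one per captured transcript) summed over cells and given as CPM, the summed UMIs of a gene scaled to a common library total, and a summed level does not tell fewer expressing cells from less RNA per cell.

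Of 1618 intact and 2023 injured barcodes, 298 barcode sequences occurred in both libraries, and in 116 of these pairs the intact cell and in 145 the injured cell had at least 5 times fewer UMIs than its counterpart. Those shallower cells were left out, which removed 100 intact and 48 injured annotated endothelial cells, and left 718 and 1274 with medians of 4461 and 11684 UMIs. Of the cells kept, 66 and 77 still shared a barcode with a cell of similar depth. All 8 pan-endothelial genes of a marker list were detected in them, with summed levels of 5957 and 4250 CPM. The authors' 9 endothelial classes were used with their own names. They were built from these same cells, so differences between classes are a description. EC_ART held the highest summed level of 18 arterial genes (8449 CPM intact and 6636 CPM injured), with intact EC_CAP-PV+ next at 7298 CPM. That list includes Gja4, Hey1, Dll4 and Jag1, so the sum is not independent of the levels described below. EC_TIP held the highest summed level of the tip-cell genes (1996 CPM) and EC_PROLIF that of the proliferation genes (2435 CPM). EC_IMMAT, EC_PROLIF and EC_TIP had 260, 162 and 100 injured cells but only 4, 11 and 4 intact ones. A further 48, 27 and 17 intact cells of these classes were among the shallower ones left out. Ratios within a class were therefore formed for the 5 classes with at least 20 cells in each library. Levels, ranges and orders of classes likewise cover only groups with at least 20 cells in the library concerned. In EC_BAR 36 injured cells were kept and 47 shallower ones left out, so every injured value of that class rests on those 36 cells.

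The RefSeq promoter table (GRCm38.p6) held 8 of the 10 genes, without Hes1 and Hey1. The 250 bases before the transcription start are shown for Lfng, Dll4 and Gja4, because Lfng holds the motif searched for and Dll4 and Gja4 are the ligand and the arterial gene whose pooled levels differed in opposite directions. Capitals mark the core RBPJ motif TGGGAA, searched on both strands (TTCCCA on the other), 5′ to 3′ on the gene's strand. Distances are counted from the RefSeq start, and the GENCODE model of Lfng used for gene positions begins earlier, so that the last 21 bases of its window lie inside that model.
Lfng, chr5:140607091-140607340, plus strand: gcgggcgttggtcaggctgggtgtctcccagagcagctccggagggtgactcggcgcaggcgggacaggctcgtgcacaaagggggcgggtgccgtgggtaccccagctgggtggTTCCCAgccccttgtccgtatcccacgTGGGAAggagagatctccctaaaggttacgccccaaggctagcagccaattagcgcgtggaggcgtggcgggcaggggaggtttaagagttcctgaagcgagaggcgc
Dll4, chr2:119325534-119325783, plus strand: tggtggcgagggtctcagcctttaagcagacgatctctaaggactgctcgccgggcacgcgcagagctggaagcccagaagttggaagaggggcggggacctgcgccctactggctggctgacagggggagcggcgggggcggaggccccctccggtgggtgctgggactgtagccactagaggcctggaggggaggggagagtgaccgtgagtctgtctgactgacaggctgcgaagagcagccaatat
Gja4, chr4:127314040-127314289, minus strand: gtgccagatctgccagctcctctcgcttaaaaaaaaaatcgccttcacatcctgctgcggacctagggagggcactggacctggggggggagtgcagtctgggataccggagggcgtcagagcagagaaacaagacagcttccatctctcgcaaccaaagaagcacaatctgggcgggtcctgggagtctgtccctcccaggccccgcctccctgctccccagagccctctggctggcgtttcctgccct

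Lfng alone among the 8 genes held the motif in this window, with matches beginning 135 bases (TTCCCA) and 108 bases (TGGGAA) before the RefSeq start. The motif occurred in 7094 of 32851 promoters of this length (21.6%). The longer form GTGGGAA occurred in 5.42% of them and the Hes and Hey motif CACGTG in 6.02%, and Lfng held both. Its CACGTG begins 112 bases before the start and overlaps the second match. A match describes the letters only, and nothing follows for the genes without one.

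When all endothelial classes were pooled, 5 of the 10 genes were at least 2-fold lower in the injured library, none was at least 2-fold higher and 5 lay between. Across the 8268 genes that averaged 10 CPM or more over both libraries, 6.82% were at least 2-fold lower and 4.79% at least 2-fold higher. These calls used the log2 ratio with 5 CPM added to both levels. The median log2 ratio of the 10 genes was -0.82, against 0.04 over all measured genes. The lower genes were Hes1, Lfng, Dll4, Jag2 and Dll1, so 3 of 4 ligands were among them and neither receptor was. Hes1 alone passed 2-fold under all 13 alternative settings. The count was 3 with the classes weighted equally (beside 4.63% of all measured genes), where Dll1 at -0.65 and Jag2 at -0.57 no longer passed. It was 3 after thinning (6.34%), 3 without every shared barcode (6.05%) and 2 without EC_PROLIF (6.31%). As a mean over cells it was 2 (6.04%), and with 20 CPM added it was 1 (3.73%). A pooled level mixes the level in each class with the number of cells of each class, and both differed between the libraries. The summed level of 10 mural marker genes in the same cells was 1065 CPM intact and 220 CPM injured, nearly all of it Tagln (657 and 159 CPM) and Acta2 (333 and 46.1 CPM), with Myh11 at 1.32 and 0.150 CPM, and its part in the pooled ratios was not tested.

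**Figure D1:**
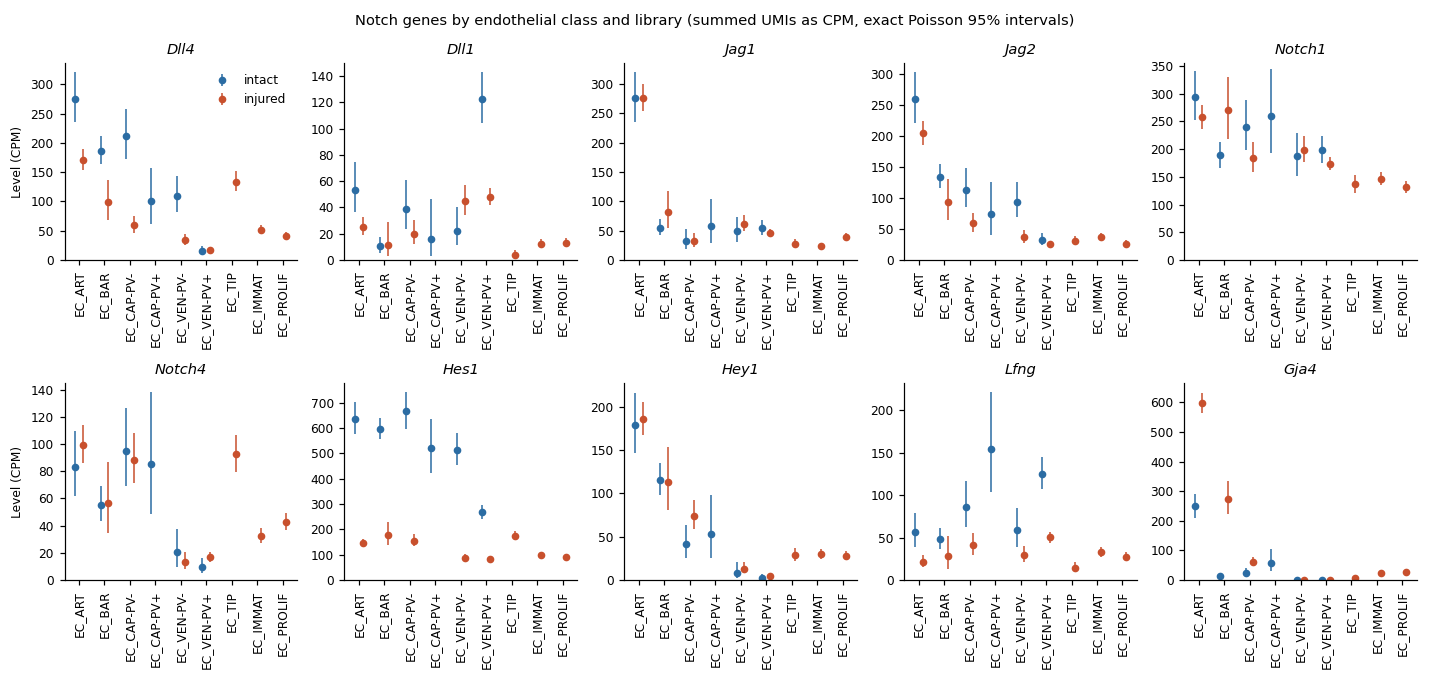
Level of each gene (CPM, linear axis from 0) in each endothelial class with at least 20 cells, intact in blue and injured in orange; points are UMIs summed over the cells of 1 library and bars exact Poisson 95% intervals of counting. Hes1 is lower in the injured library in every class with both points, whereas Gja4 in EC_ART goes from 249 to 599 CPM.

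The ligand Dll4, which marks arterial and sprouting endothelium, was at 137 CPM (95% interval 126 to 148, 622 UMIs) in the intact and 61.4 CPM (58.0 to 64.9, 1227 UMIs) in the injured library, a ratio of 0.448 (0.407 to 0.494). Among intact classes of at least 20 cells its level was highest in EC_ART (275 CPM, 235 to 321), followed by EC_CAP-PV- (212 CPM) and EC_BAR (187 CPM), whose intervals overlapped, and lowest in EC_VEN-PV+ (14.9 CPM). In the injured library EC_ART again came first (170 CPM, 153 to 189), and EC_TIP came next at 134 CPM (118 to 151). Of EC_TIP 4 intact cells were kept and 17 shallower ones left out. EC_BAR followed at 98.6 CPM (68.7 to 137), and its interval overlapped that of EC_TIP. EC_IMMAT and EC_PROLIF, the other classes found mainly after injury, stood at 51.5 and 41.2 CPM.

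Within classes Dll4 was lower after injury in 4 of 5, with intervals that exclude 1. The ratio was 0.278 (0.200 to 0.385) in EC_CAP-PV-, 0.305 (0.202 to 0.458) in EC_VEN-PV-, 0.529 (0.360 to 0.755) in EC_BAR and 0.618 (0.512 to 0.748) in EC_ART. In EC_VEN-PV+, where 20 and 81 UMIs were counted, the ratio was 1.15 (0.696 to 1.97), and its log2 ratio turned from 0.15 to -1.02 when cells with at least 3 UMIs of mural, fibroblast, myeloid or lymphoid markers were left out. Other marker genes also differed within EC_VEN-PV-: the summed level of 8 venous marker genes was 2170 CPM intact and 6280 CPM injured, and that of 7 barrier genes was 6479 and 898 CPM. The part of that shift in the Dll4 ratio of EC_VEN-PV- was not tested.

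Because the injured cells were deeper, shares of cells with a UMI were compared after every cell was drawn down to 3000 UMIs, which left out 236 intact and 51 injured cells. Dll4 was then found in 128 of 482 intact cells (26.6%, 22.7 to 30.7) and 170 of 1223 injured cells (13.9%, 12.0 to 16.0). Without thinning the shares were 34.3% and 38.5%, the opposite order. Fibroblast-like cells without an annotation, which should lack Dll4 and had median depths of 6586 and 11672 UMIs, gave 0.633% and 0.851% after thinning. These cells were chosen for holding more fibroblast than pan-endothelial UMIs, so that share may understate what free RNA can give.

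Dll1, a Delta ligand that binds the same receptors as Dll4, was distributed differently from it. In the intact library EC_VEN-PV+ held 66.5% of all Dll1 UMIs and had the highest level (123 CPM, 105 to 143), with EC_ART next at 53.1 CPM. After injury EC_VEN-PV+ stood at 48.0 CPM (41.9 to 54.6) and EC_VEN-PV- at 44.6 CPM (34.3 to 56.9), and these did not differ beyond counting error. EC_TIP had the lowest value, 3.55 CPM from 7 UMIs. The ratio was 0.391 (0.319 to 0.481) in EC_VEN-PV+ and 0.473 (0.298 to 0.760) in EC_ART, but 1.99 (1.04 to 4.19) in EC_VEN-PV-, where only 11 intact UMIs were counted and the venous and barrier sums differed as given above. Pooled, Dll1 was at 54.6 CPM intact and 24.0 CPM injured, a ratio of 0.440 (0.377 to 0.515).

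Jag1 and Jag2, the Jagged ligands, were both highest in EC_ART. Jag1 in EC_ART was at 275 CPM (235 to 321) intact and 276 CPM (254 to 300) injured, a ratio of 1.00 (0.841 to 1.20), and EC_ART held 45.4% and 44.9% of the Jag1 UMIs of all endothelial cells. The other classes ran from 32.9 to 58.5 CPM intact and from 23.4 to 81.7 CPM injured. None of the 5 within-class ratios of Jag1 had an interval that excluded 1, while the pooled ratio was 0.775 (0.690 to 0.874). Without any cell of a shared barcode the log2 ratio of Jag1 in EC_ART was -0.33, and with only cells under 5% mitochondrial UMIs it was 0.43, so its near equality depends on which cells are kept.

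Jag2 was at 259 CPM (220 to 303) in intact and 204 CPM (185 to 224) in injured EC_ART, a ratio of 0.787 (0.653 to 0.952), which thinning turned to a log2 ratio of 0.05. Larger differences were seen in EC_CAP-PV- (113 and 58.9 CPM, ratio 0.521, 0.356 to 0.763) and EC_VEN-PV- (93.5 and 36.2 CPM, ratio 0.388, 0.256 to 0.589). The pooled ratio of 0.457 (0.410 to 0.509) was lower than 4 of the 5 within-class ratios. When the 5 classes were given equal weight in both libraries, the log2 ratio of Jag2 was -0.57 in place of -1.06. The same weighting took Jag1 from -0.34 to 0.09, and Dll4 only from -1.10 to -1.03.

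Counted over the 4 ligands together, 275 of 482 thinned intact cells (57.1%, 52.5 to 61.5) and 461 of 1223 injured cells (37.7%, 35.0 to 40.5) held a UMI of at least 1 ligand. Cells with at least 2 different ligands made up 20.3% (16.8 to 24.2) and 8.83% (7.30 to 10.6). In EC_ART 54 of 60 intact and 96 of 131 injured cells held a ligand. In EC_TIP 39 of 95 cells did (41.1%), and 3 of 95 (3.16%) held 2 or more different ligands.

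Notch1, the main endothelial receptor, varied less from class to class than any of the 4 ligands. It was at 214 CPM (201 to 228) in the intact and 168 CPM (163 to 174) in the injured library, a ratio of 0.788 (0.734 to 0.847). Intact classes ran from 187 to 294 CPM, and no neighbours in that order differed beyond counting error. Injured classes of at least 20 cells ran from 132 CPM in EC_PROLIF to 271 CPM in EC_BAR, with the classes found mainly after injury at the low end (EC_IMMAT 146 CPM, EC_TIP 136 CPM). Within classes the ratio was 1.43 (1.12 to 1.82) in EC_BAR and 0.766 (0.606 to 0.972) in EC_CAP-PV-, and the other 3 intervals held 1. Injured EC_BAR held 36 cells here, after 47 shallower ones were left out. In EC_CAP-PV- the log2 ratio was -0.38 as counted and 0.14 after thinning, which kept 59 of 128 intact and 71 of 76 injured cells. After thinning, 42.7% of intact and 38.8% of injured cells held a Notch1 UMI, and 54.3% and 76.4% did before.

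Notch4, a receptor largely restricted to endothelium, was at 47.8 CPM (41.6 to 54.6) intact and 45.9 CPM (43.0 to 49.0) injured, a ratio of 0.961 (0.828 to 1.12). All 5 within-class intervals held 1, from 0.651 (0.288 to 1.57) in EC_VEN-PV- to 1.74 (0.962 to 3.41) in EC_VEN-PV+. Its level separated the classes more than that of Notch1 did. Injured EC_ART (99.4 CPM), EC_TIP (92.3 CPM) and EC_CAP-PV- (88.4 CPM) did not differ from one neighbour to the next beyond counting error, whereas the venous classes stood at 16.8 and 13.2 CPM. Fibroblast-like cells held Notch4 in 0.316% and 0.426% of thinned cells, against 13.1% and 10.7% of endothelial cells (22.0% and 37.7% before thinning).

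A cell could carry both a ligand and a receptor. Among thinned cells this was seen in 27.8% (23.8 to 32.0) of intact and 18.2% (16.1 to 20.5) of injured cells, and the share with a receptor, 49.4% and 45.0%, differed less than the share with a ligand. Cells with a Dll4 UMI held Notch4 in 20.3% of intact and 17.1% of injured cases, against 10.5% and 9.69% of cells without Dll4. They held Hey1 in 29.7% and 15.9%, against 7.91% and 8.45%. For Lfng the order was the reverse, 11.7% against 26.8% in intact and 6.47% against 10.6% in injured cells. Pooled shares mix classes that differ in all these genes, and within classes the order for Notch4 varied. For Notch4 the share was 26.7% with Dll4 against 16.7% without it in intact EC_ART, 22.5% against 23.1% in injured EC_ART and 9.52% against 26.3% in intact EC_CAP-PV-, with overlapping intervals in each. For Lfng, 2 of 30 cells with Dll4 and 13 of 30 without it held a UMI in intact EC_ART, and 1 of 40 and 5 of 91 did in injured EC_ART. The Lfng shares were 8.16% against 13.9% in intact EC_BAR and 8% against 7.14% in EC_TIP, with overlapping intervals. The order for Hey1 varied too. Its shares were 43.3% against 26.7% in intact EC_ART, 34.7% against 22.2% in intact EC_BAR and 4% against 7.14% in EC_TIP, again with overlapping intervals.

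Lfng itself was at 81.5 CPM (73.4 to 90.2) in the intact and 33.2 CPM (30.7 to 35.8) in the injured library, a ratio of 0.408 (0.359 to 0.464). Its highest intact levels were in EC_CAP-PV+ (154 CPM, 29 UMIs) and EC_VEN-PV+ (125 CPM, 107 to 145), and EC_VEN-PV+ held 45.4% of its UMIs. Lfng was lower after injury in all 5 classes. The ratio was 0.384 (0.240 to 0.619) in EC_ART, 0.402 (0.329 to 0.493) in EC_VEN-PV+, 0.473 (0.302 to 0.741) in EC_CAP-PV- and 0.508 (0.310 to 0.844) in EC_VEN-PV-, and the interval in EC_BAR held 1 (0.590, 0.270 to 1.16). Thinned shares were 22.8% and 10.1%, and unthinned ones 32.2% and 34.8%. Mfng, a fringe enzyme of the same family, was higher in the injured library, 63.0 CPM intact and 101 CPM injured (ratio 1.61, 1.42 to 1.83), without passing 2-fold.

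**Figure D2:**
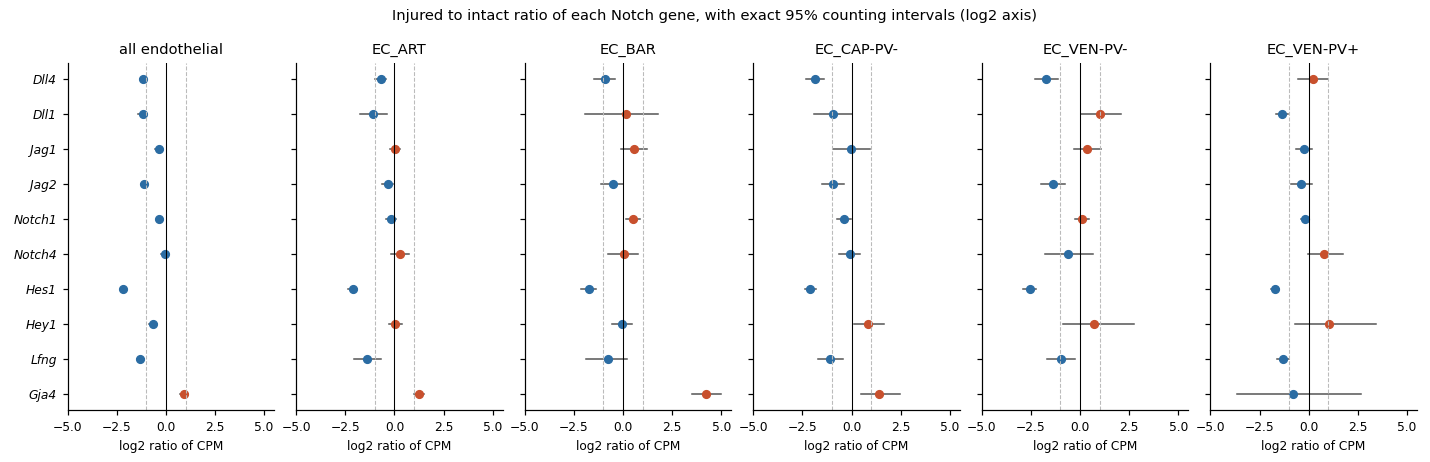
Ratio of injured to intact level on a log2 axis for each gene, in all endothelial cells and in the 5 classes with at least 20 cells in both libraries; lines are exact 95% counting intervals, dashed lines mark 2-fold, blue points lie below and orange points above equality. Gja4 in EC_VEN-PV- has no point because the intact library held 0 UMIs; Hes1 lies left of 2-fold lower in every panel and Gja4 right of 2-fold higher in EC_ART, EC_BAR and EC_CAP-PV-.

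Hes1, a repressor and a direct Notch target that other signals also induce, showed the largest difference of the 10 genes in the pooled comparison. It was at 497 CPM (477 to 518, 2259 UMIs) intact and 109 CPM (105 to 114, 2185 UMIs) injured, 4.55-fold lower (4.29 to 4.83). All 5 classes had lower values after injury: 637 and 146 CPM in EC_ART, 598 and 178 CPM in EC_BAR, 667 and 156 CPM in EC_CAP-PV-, 268 and 82.5 CPM in EC_VEN-PV+, and 514 and 86.4 CPM in EC_VEN-PV-. The ratios ran from 0.168 (0.134 to 0.209) in EC_VEN-PV- to 0.307 (0.266 to 0.355) in EC_VEN-PV+. The highest injured class was below the lowest intact class. After thinning 64.1% of intact and 25.4% of injured cells held Hes1, and the unthinned shares were 69.5% and 59.1%. Fibroblast-like cells hold Hes1 themselves (55.4% and 47.7% after thinning), so no group of cells lacking it was at hand to read free RNA.

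The lower Hes1 level was not confined to annotated endothelium. Cells without an annotation that carried mural markers had 932 CPM intact and 228 CPM injured (ratio 0.245, 0.206 to 0.290), and those with lymphatic markers had 1080 and 333 CPM (ratio 0.308, 0.241 to 0.390). Fibroblast-like cells had 389 and 238 CPM (ratio 0.612, 0.561 to 0.668). The 8 pan-endothelial genes summed to 2663 CPM intact and 2202 CPM injured in mural-like cells, and to 4131 and 3566 CPM in lymphatic-like cells. In fibroblast-like cells they summed to 316 and 644 CPM. The part of endothelial RNA in the Hes1 ratio of the mural-like cells was not tested. The summed level of 12 immediate early genes such as Fos and Jun, which respond to cell handling among other stimuli, was also lower in 3 of these 4 groups: it was 20877 CPM intact and 7678 CPM injured in endothelial cells, 24022 and 12860 CPM in mural-like cells, 21543 and 10643 CPM in lymphatic-like cells, but 9671 and 10080 CPM in fibroblast-like cells. By class the sum was 26744 and 9279 CPM in EC_ART, 22501 and 12363 CPM in EC_BAR and 19516 and 10891 CPM in EC_CAP-PV-. It was 17185 and 8269 CPM in EC_VEN-PV+ and 22770 and 14114 CPM in EC_VEN-PV-, the class with the lowest Hes1 ratio. This list was added after the data were seen, and the part of these genes in the Hes1 difference was not tested. Marker sums of the lymphatic-like and fibroblast-like cells also differed between the libraries, as given at the end, and their part was not tested either. With endothelial cells holding at least 3 UMIs of mural, fibroblast, myeloid or lymphoid markers left out, the pooled log2 ratio of Hes1 was -2.21 in place of -2.14.

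**Figure D3:**
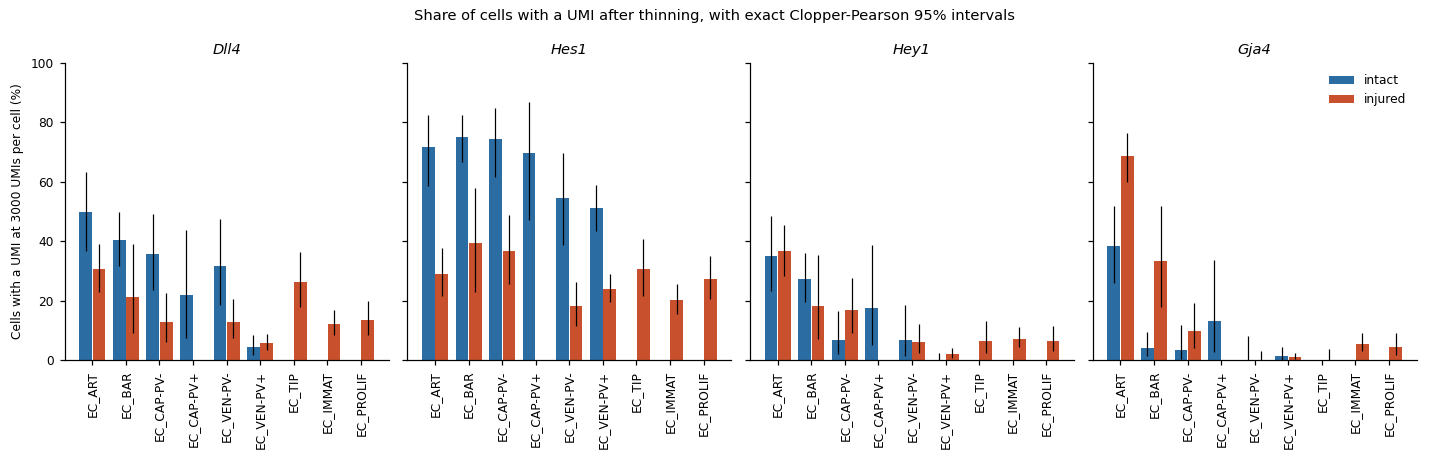
Share of cells (%, axis 0 to 100) with a UMI of Dll4, Hes1, Hey1 or Gja4 after each cell was drawn down to 3000 UMIs, by class, intact in blue and injured in orange, with exact Clopper-Pearson 95% intervals; classes with under 20 cells in a library have no bar for it. Hes1 is found in fewer injured than intact cells of each class with both bars, while Gja4 in EC_ART goes from 38.3% to 68.7%.

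Hey1, a Notch target and arterial repressor, did not follow Hes1. Its pooled level was 66.9 CPM (59.6 to 74.9) intact and 42.1 CPM (39.3 to 45.1) injured, a ratio of 0.629 (0.551 to 0.720). Within EC_ART it was 179 CPM (147 to 216) and 186 CPM (167 to 205), a ratio of 1.04 (0.834 to 1.29), and within EC_BAR 115 and 113 CPM, a ratio of 0.977 (0.673 to 1.39). In EC_CAP-PV- the injured level was higher, 41.2 and 74.2 CPM (ratio 1.80, 1.09 to 3.11). EC_BAR held 51.6% of Hey1 UMIs and 30.0% of all endothelial UMIs in the intact library, against 4.75% and 1.78% in the injured one, and the equal-weight log2 ratio was 0.16 in place of -0.61. Thinned shares in EC_ART were 35.0% and 36.6%, and unthinned ones 40.7% and 72.2%.

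Gja4, which encodes connexin 37 of arterial gap junctions, was the only one of the 10 genes with a higher pooled level after injury. It was at 42.7 CPM (36.9 to 49.2, 194 UMIs) intact and 80.7 CPM (76.8 to 84.7, 1613 UMIs) injured, a ratio of 1.89 (1.63 to 2.20). With the 5 classes weighted equally its log2 ratio was 1.62, and Hey1, Jag1 and Notch4 then also lay above equality (0.16, 0.09 and 0.06). EC_ART held 77.3% and 75.4% of its UMIs. In that class the level was 249 CPM (211 to 292) and 599 CPM (565 to 633), a ratio of 2.40 (2.03 to 2.87). Thinned shares in EC_ART were 38.3% (23 of 60 cells) and 68.7% (90 of 131 cells), and unthinned ones 58.2% and 91.7%. No single cell carried the difference, since the cell with the most Gja4 UMIs held 6.67% and 7.98% of them, and without it the levels were 238 and 564 CPM.

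Among the within-class ratios of the 10 genes that could be formed, the largest was that of Gja4 in EC_BAR, where 20 UMIs in 181 intact cells (14.7 CPM) stood against 97 UMIs in 36 injured cells (273 CPM), a ratio of 18.6 (11.4 to 31.8). Thinned shares there were 4.13% (5 of 121, 1.36 to 9.38) and 33.3% (11 of 33, 18.0 to 51.8), and unthinned ones 8.29% and 52.8%. Fibroblast-like cells gave 0.949% (0.196 to 2.75) and 2.98% (1.21 to 6.04) after thinning, and levels of 2.63 and 18.8 CPM (8 and 73 UMIs, ratio 7.15, 3.44 to 17.2). Whether those UMIs are free RNA or transcripts of the fibroblast-like cells was not tested. The top injured cell held 18.6% of those UMIs, and the level without it was 234 CPM. The injured EC_BAR cells had lower barrier genes than the intact ones (summed level 3770 against 9471 CPM) and higher venous genes (2049 against 890 CPM). The sum of 18 arterial genes, Gja4 among them, was 5184 CPM intact and 4010 CPM injured. In that list Stmn2 (1.47 and 206 CPM), Fbln5 (2.20 and 76.1 CPM) and Mgp (420 and 1361 CPM) were higher after injury. Cxcl12 (3025 and 874 CPM), Sox17 (808 and 451 CPM) and Bmx (199 and 95.8 CPM) were lower. In addition, 47 shallower injured cells of this class had been left out, with which the level of Gja4 was 254 CPM. The part of these differences in the ratio was not tested. EC_CAP-PV- had 22.6 and 59.9 CPM (ratio 2.65, 1.38 to 5.57). In contrast the venous classes held 2 and 0 intact UMIs and 4 and 1 injured UMIs, and the 0 in EC_VEN-PV- has an exact Poisson upper bound of 7.49 CPM. EC_TIP, high in Dll4, had 6.09 CPM of Gja4 (3.15 to 10.6), from 12 UMIs in 8 of its 100 cells.

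Mural markers were read beside Gja4. Mural-like cells without an annotation had 262 CPM intact and 235 CPM injured of Gja4. They also held 2663 and 2202 CPM of the 8 pan-endothelial genes, and the part of endothelial RNA in their Gja4 was not tested. In EC_ART the summed level of 10 mural genes was 113 CPM intact and 287 CPM injured, of which Acta2 made up 16.6 and 210 CPM, while Myh11, a defining smooth muscle gene, was at 0 UMIs in both and the pericyte gene Rgs5 was at 29.9 and 3.94 CPM. In EC_BAR the same sum was 1462 CPM intact and 166 CPM injured. The part of mural RNA in the Gja4 ratios was not tested beyond leaving cells out. With cells holding at least 3 UMIs of mural, fibroblast, myeloid or lymphoid markers left out, the log2 ratio of Gja4 was lower. It was 1.11 in EC_ART in place of 1.25, 2.85 in EC_BAR in place of 3.82 and 0.45 pooled in place of 0.84. That cutoff does not scale with depth, and median depths were 4513 and 11107 UMIs in EC_ART and 4682 and 7906 UMIs in EC_BAR. Gja5, the connexin 40 gene and a partner of Gja4 in arteries, was at 54.8 CPM (37.7 to 76.9) in intact and 133 CPM (118 to 150) in injured EC_ART. Other genes of the arterial list went both ways in EC_ART, and its sum was 8449 CPM intact and 6636 CPM injured. Efnb2 (173 and 358 CPM) and Stmn2 (400 and 564 CPM) were also higher after injury. Mgp (2712 and 1259 CPM), Sox17 (913 and 475 CPM), Bmx (314 and 127 CPM) and Alpl (214 and 6.89 CPM) were lower.

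Counted by class, 1 of the 10 genes was at least 2-fold higher in EC_ART, EC_BAR and EC_CAP-PV-, and it was Gja4 in each, beside 6.07%, 6.29% and 5.76% of all measured genes. None of the 10 was at least 2-fold higher in EC_VEN-PV+ or EC_VEN-PV-, beside 3.77% and 7.91% of all genes. Hes1 was at least 2-fold lower in all 5 classes and was the only such gene in EC_BAR. EC_ART added Lfng, EC_CAP-PV- added Dll4, EC_VEN-PV+ added Dll1 and Lfng, and EC_VEN-PV- added Dll4 and Jag2. Those counts of 2, 1, 2, 3 and 3 stood against 7.31%, 6.87%, 9.21%, 4.61% and 6.34% of all genes in EC_ART, EC_BAR, EC_CAP-PV-, EC_VEN-PV+ and EC_VEN-PV-. EC_VEN-PV+ and EC_VEN-PV- had 8 and 9 of the 10 genes at a mean of at least 10 CPM.

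The rest of the pathway was read from lists of 58 further genes, of which 36 reached a mean of 10 CPM. Among these 36, 1 was at least 2-fold lower and none higher, beside 6.82% and 4.79% of all measured genes. The other 35 lay between, and the median log2 ratio of the 36 was -0.01. The lower gene was Id1, an inhibitor of differentiation known as a BMP target, at 807 CPM intact and 194 CPM injured (ratio 0.240, 0.229 to 0.251). The cleavage genes differed little, as in Adam10, the protease that makes the first ligand-dependent cut (176 and 177 CPM), apart from Psen2 of the gamma-secretase complex (66.7 and 38.6 CPM). Of 13 nuclear factors 7 lay above and 6 below a log2 ratio of 0, with a median of 0.08. The DNA-binding partner Rbpj was at 33.7 and 27.0 CPM. The coactivator genes Maml2 (54.2 and 30.0 CPM) and Ep300 (75.5 and 42.8 CPM) were among the lower ones, and Maml3 (13.2 and 20.6 CPM, ratio 1.56, 1.19 to 2.08) and the deacetylase gene Hdac1 (54.4 and 83.0 CPM) among the higher. Nrarp, another target gene, was at 60.8 and 54.7 CPM (ratio 0.901, 0.789 to 1.03), in contrast to Hes1.

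**Figure D4:**
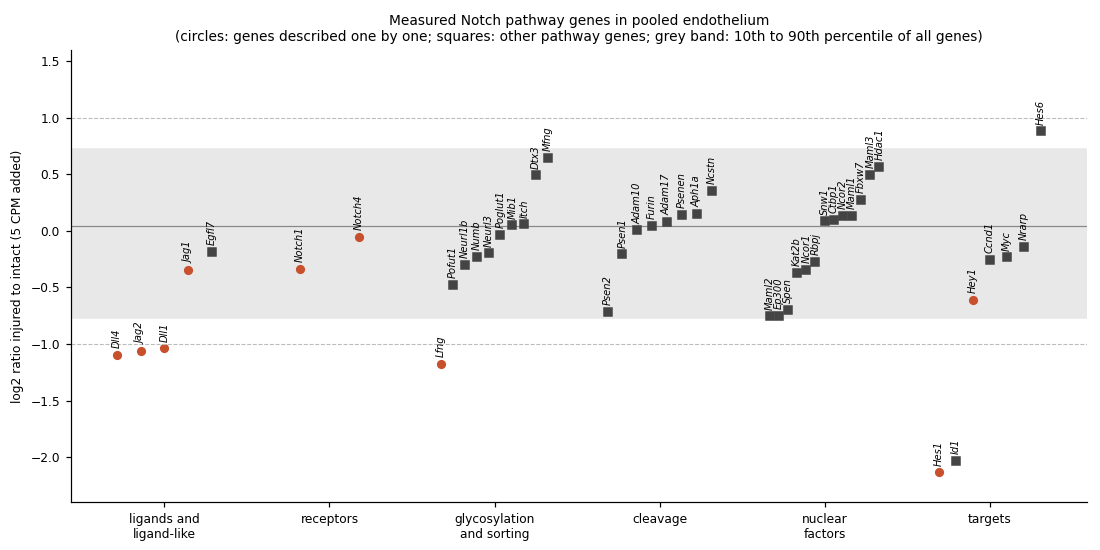
log2 ratio of injured to intact level (5 CPM added to both) in pooled endothelium for each measured gene of the pathway lists, ordered by role; circles are 9 of the genes described one by one (Gja4 is in none of these lists), squares other pathway genes, the grey band the 10th to 90th percentile of all genes (-0.77 to 0.72) and dashed lines 2-fold. Hes1 and Id1 lie near -2 while receptors, cleavage genes and nuclear factors lie between the dashed lines.

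Several paralogs were too low to be described. The receptors Notch2 (4.84 and 2.90 CPM) and Notch3 (2.64 and 0.550 CPM) and the target genes Hey2 (1.98 and 0.800 CPM) and Hes5 (0.440 and 0.250 CPM) stayed under the 10 CPM line. Hes6 was at 9.91 and 22.4 CPM (ratio 2.26, 1.66 to 3.15), which is under 2-fold once 5 CPM are added.

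The likeness of other genes to each of the 10 was measured as Pearson's r of log2 level (5 CPM added) over 14 class-by-library groups, 6 intact and 8 injured, among 4701 genes. These groups share a library and its depth, so r is a description. Jag2 was closest to Sema3g (r = 0.96), an arterial semaphorin, Sox13 (0.95) and Msx1 (0.94). Gja4 was closest to Col8a1 (0.93), Nenf (0.90) and Hey1 (0.88), and Hey1 in turn to Sipa1l2, Map4k3 and Mapk3 (each 0.90). Dll4 was closest to Pls3 (0.93), Sparcl1 (0.93) and Map4k2 (0.92), and Notch4 to Gprc5b (0.95), Pcdh1 (0.94) and Ptp4a3 (0.93). Hes1 was closest to Xaf1, Clic5 (both 0.97) and Timp3 (0.95).

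For Jag1 the 3 closest genes were Azin1 (0.93), Pcsk5 (0.91) and Mecom (0.91). For Dll1 they were Rasl11a (0.88), Cpne8 (0.87) and Anpep (0.86), for Notch1 Zbtb7a (0.90), Rsbn1 (0.89) and Lmcd1 (0.89), and for Lfng Zfpm1 (0.97), Bag5 (0.93) and Ntf3 (0.92). Within single libraries r of the named pairs was lower in places, down to 0.56 for Lfng and Bag5 over the 8 injured groups.

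Among the 10 genes themselves r is given within each library, because pooling mixes in the difference between the libraries. Hey1 and Gja4 had 0.84 over the 6 intact and 0.96 over the 8 injured groups, Dll4 and Hes1 0.99 and 0.85, and Dll4 and Jag2 0.93 and 0.70. Negative values were seen for Dll4 with Lfng (-0.60 and -0.79, against -0.10 pooled), Dll4 with Dll1 (-0.56 and -0.62) and Dll1 with Notch4 (-0.47 and -0.64). For Hes1 and Lfng the sign turned, from 0.61 pooled to -0.52 and -0.53 within the libraries.

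On the GRCm38 map the genes lie at chr2:119325784-119335962 (Dll4), chr17:15367354-15376872 (Dll1), chr2:137081456-137116644 (Jag1), chr12:112907819-112929776 (Jag2), chr2:26457903-26516663 (Notch1), chr17:34564268-34588503 (Notch4), chr16:30064384-30067796 (Hes1), chr3:8663359-8667256 (Hey1), chr5:140607320-140615545 (Lfng) and chr4:127311421-127314039 (Gja4), all protein-coding genes.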

How the data were processed

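The authors deposited counts of UMIs per gene and barcode without normalization, made with Cell Ranger 3.0.2 per the file headers. The submitters' processing notes also name Seurat 4.0.1, Cell Ranger 6.1.2 and, as builds, GRCm38 and mm10. They also deposited a cell table with 10 classes. Its filters and clustering are not given in the sources used here, and no doublet caller was run. The annotation used for counting is not given either, and positions come from GENCODE M21 (GRCm38), matched by ID and version for 9 genes and by ID alone for Hes1. Libraries held 9401203 UMIs (intact) and 27157892 UMIs (injured), and endothelial cells used here 4542225 and 19989024.

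UMIs were summed per class and library as CPM with exact Poisson 95% intervals, ratios with exact conditional binomial intervals and shares with exact Clopper-Pearson intervals (Python 3.11.15, numpy 2.4.6, scipy 1.17.1). Log2 ratios had 5 CPM added, genes needed a mean of 10 CPM, and thinning drew 3000 UMIs per cell without replacement (seed 1). The INTERMEDIATE class was not counted as endothelial. Unannotated cells with at least 1000 UMIs, at least 4 fibroblast genes and more fibroblast than pan-endothelial UMIs were called fibroblast-like, and mural-like and lymphatic-like cells were set among the others at the same depth, from at least 4 mural genes with more mural than pan-endothelial UMIs and from at least 3 lymphatic genes, after the data were seen. The immediate early list was also added then. The code was tested on simulated data. All 10 genes are named, with the 3 most alike each and any pathway gene past 2-fold, and other names were chosen after their values were seen. The genes and lists were chosen with earlier results of these data known.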

Additional observations from a re-analysis of the deposited data

Results flagged for a closer look

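The ratio of injured to intact Dll1 lay on opposite sides of 1 in different classes, at 1.99 in EC_VEN-PV- but 0.473 in EC_ART and 0.391 in EC_VEN-PV+, each with a counting interval that excluded 1. Notch1 did likewise, at 1.43 in EC_BAR and 0.766 in EC_CAP-PV-. With 1 library per condition the difference between classes was not tested for either gene. After thinning, the log2 ratio of Notch1 in EC_CAP-PV- was 0.14 in place of -0.38. The Notch1 ratio in EC_BAR rests on 36 injured cells, after 47 shallower ones were left out.

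Gja4 was also found in data outside the endothelial comparison. Injured cells that had no annotation and fell in none of the marker groups held 127 CPM of Gja4, and the same cells of the intact library 75.8 CPM. Their median depths were 1065 and 1492 UMIs.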

How the results depend on the processing

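No paired analysis was possible because each condition has 1 library. Of 130 alternative values for the pooled ratios 126 kept their direction, and the 4 others lay within 0.2 of equality on the log2 scale. The count of genes at least 2-fold lower was 5 with the settings used throughout (beside 6.82% of all measured genes). It was 3 without every shared barcode (6.05%), 1 with 20 CPM added (3.73%) and 2 as a mean of per-cell CPM (6.04%). It was 3 after thinning (6.34%), 3 with classes weighted equally (4.63%) and 2 without EC_PROLIF (6.31%). The count at least 2-fold higher was 0 with the settings used throughout (4.79%). It was 1 (Gja4) after thinning (4.71%), with classes weighted equally (2.91%) and without EC_PROLIF (3.93%). For the other pathway genes the count at least 2-fold higher was 1 with 1 CPM added (6.40%) and 1 after thinning (4.71%). The cause of these moves was not tested. Hes1 ran from -2.21 to -2.00 over its 13 alternatives, Dll4 from -1.31 to -0.88, Lfng from -1.28 to -0.93 and Gja4 from 0.45 to 1.62. Within classes 263 of 290 alternative values kept their direction. Without cells holding other markers Dll4 in EC_VEN-PV+ was -1.02 in place of 0.15, and EC_VEN-PV- could not be computed, having under 20 cells. That setting and leaving out every shared barcode within classes, and leaving out EC_ART, were chosen after the data were seen. Depth limits Gja4 in the venous classes and in intact EC_BAR and EC_CAP-PV-, and Dll1 in EC_BAR and EC_TIP, where few UMIs were counted.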

Other observations

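Jag1 was not restricted to vessels in these libraries. Fibroblast-like cells without an annotation held it at 151 CPM (138 to 166, 460 UMIs) intact and 73.1 CPM (64.9 to 82.1, 284 UMIs) injured, a ratio of 0.484 (0.416 to 0.562). Marker sums of this group differed between the libraries, at 15812 CPM intact and 28440 CPM injured for 7 fibroblast genes. They were 5253 and 1132 CPM for 6 perineurial genes and 6.57 and 690 CPM for 10 proliferation genes. The part of these shifts in the Jag1 ratio was not tested. After thinning, 32.6% and 15.7% of these cells had a Jag1 UMI, against 18.9% and 14.2% of endothelial cells. The other ligands were near 0 there, with a Jag2 UMI in 0 of 316 thinned intact cells (exact upper bound 1.16% for cells with a UMI at this depth) and 2 of 235 injured cells. Notch1 was at 47.7 and 53.3 CPM in the same cells.

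Lymphatic-like cells without an annotation, 104 intact and 20 injured, had the highest Notch1 level among intact groups of at least 20 cells (347 CPM, 299 to 400) and were at 202 CPM (149 to 268) after injury. Their Gja4 level was 73.7 CPM intact and 164 CPM injured (ratio 2.23, 1.40 to 3.56), so the direction seen in EC_ART was also seen there, from 40 and 39 UMIs. The summed level of 6 lymphatic genes in lymphatic-like cells was 34795.8 CPM intact and 14938.5 CPM injured. That of 10 proliferation genes was 24.0 and 1176 CPM. The part of these shifts in the ratios of this group was not tested. Hes1 in intact lymphatic-like cells, 1080 CPM, was above that of every annotated endothelial class of at least 20 cells.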
